A study of Mus musculus with 12 samples.

Results

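The insulin-like growth factor (IGF) axis was followed in the mouse kidney through 10 genes, chosen by their symbols in the deposited tables. They are the ligand genes Igf1 and Igf2, the noncoding H19 beside Igf2, the receptor genes Igf1r and Igf2r, and the binding protein genes Igfbp2, Igfbp3, Igfbp4, Igfbp5 and Igfbp7. They make up 10 of 32692 listed genes, and all 10 were among the 18763 genes with enough counts to be tested. Whole kidneys of wild-type, untreated mice were sequenced as ribosome-depleted total RNA at day 0 (n = 6 libraries) and day 8 (n = 5 libraries). The series asks which transcripts change in the kidney over the neonatal period, with the mineralocorticoid receptor and the microRNAs miR-409-3p and miR-431-5p as its subject. The labels list 1 more day 8 sample, which was not analysed here. The labels do not say whether each library came from a separate animal, so a p-value here speaks only to the spread among libraries, which may be technical.

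IGF1 and IGF2 are small secreted proteins related to insulin, and both drive growth by activating IGF1R, a receptor tyrosine kinase that signals through insulin receptor substrates, PI3-kinase and AKT. IGF2R does not signal in this way; it carries IGF2 into the cell for breakdown and so lowers the amount outside. The binding proteins hold most IGF in the extracellular space and set how much of it reaches the receptors. In the mouse, Igf2 is expressed mainly from the paternal allele and is a major growth factor of the fetus, H19 is expressed from the maternal allele of the same locus, and Igf1 takes over much of growth after birth under the control of growth hormone.

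Library totals ranged from 18222129 to 24428597 estimated counts. Some libraries of the same age stood apart. The summed level of 8 liver markers was 164 to 222 TPM (length-scaled transcript abundance) in day 0 libraries 1 to 3 and 17.1 to 40.5 TPM in day 0 libraries 4 to 6, against 14.2 to 93.5 TPM at day 8, and none of the 8 markers was listed at 0 in any library. The summed level of 9 fat markers was 135 to 186 TPM in day 8 libraries 3 to 5, where no marker was at 0, and 73.7 to 103 TPM in all other libraries, where 1 to 6 of the 9 were at 0. Much of that sum was Fabp4, with a mean of 87.4 TPM at day 0 and 88.6 TPM at day 8. Ucp1, another of the fat markers, had 3.00 and 2.33 TPM in day 8 libraries 1 and 2. It had 10.9 to 31.4 TPM in day 8 libraries 3 to 5 and at most 0.04 TPM at day 0. This fat marker was thus higher in every day 8 library than in any day 0 library. Markers of the kidney itself were high throughout, with 8 epithelial markers summing to 1341 to 1657 TPM at day 0 and 3286 to 4076 TPM at day 8. Those of the nephron progenitor, a cell type of the developing kidney, summed to 60.8 to 75.7 TPM at day 0 and 8.73 to 10.7 TPM at day 8. In whole tissue, fewer cells of a type and less RNA per cell cannot be told apart.

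Between day 0 and day 8, 5 of the 10 genes rose (Igf1, Igfbp2, Igfbp3, Igfbp4 and Igfbp7), 4 fell (Igf2, H19, Igf1r and Igf2r) and Igfbp5 did not pass the test. Igf2 and H19 fell by more than 10-fold, Igfbp7 rose 2.59-fold, and the other changes were between 1.20-fold and 1.59-fold. Calls are from edgeR's quasi-likelihood test over all 18763 genes with a Benjamini-Hochberg adjusted p under 0.05, by which 57.6% of all tested genes were called, 27.5% higher and 30.1% lower at day 8. The ranges of library-scaled counts (CPM, after TMM normalisation) did not overlap between the ages for 8 of the 10 genes, against 40.5% of all tested genes. The median log2 fold change was 0.14 over the 10 genes and -0.01 over all tested genes. That median over all genes shifts with the scale, to -0.07 with library size alone and 0.13 with TPM, and changes of that size are relative to it.

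**Figure D1:**
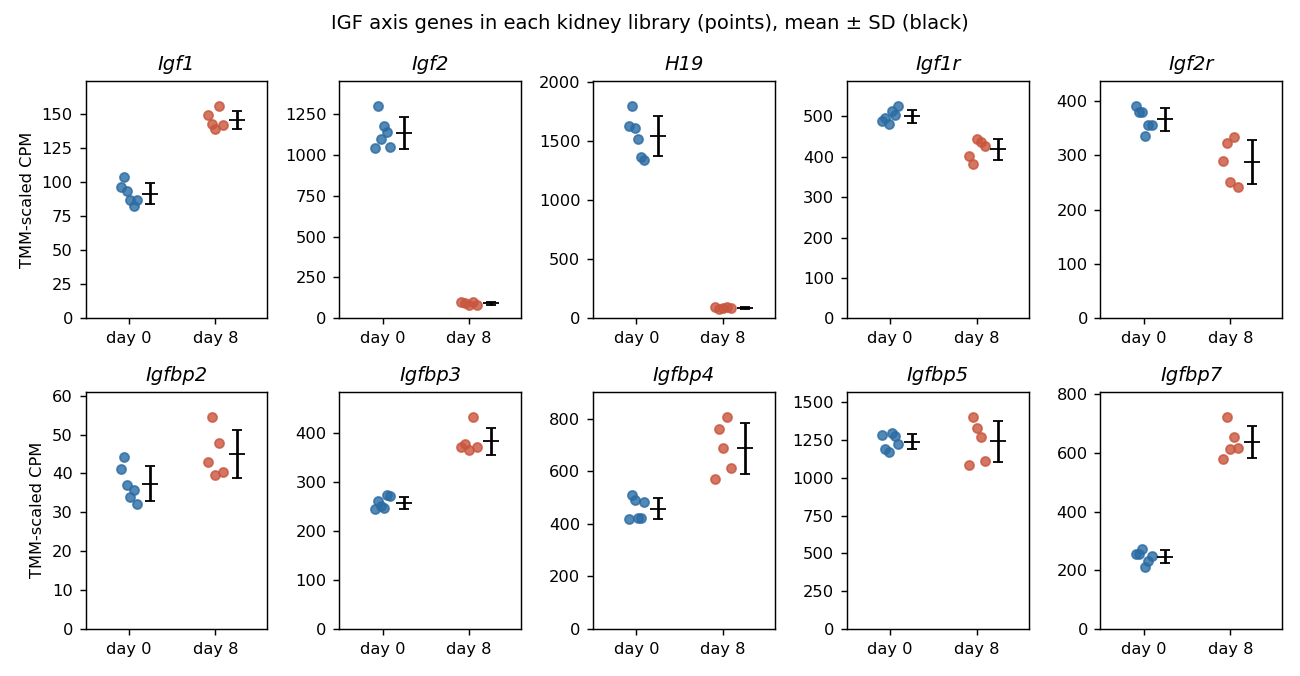
TMM-scaled CPM (vertical axes, from 0, each on its own scale) of the 10 IGF axis genes in each day 0 library (blue, n = 6) and day 8 library (red, n = 5); black marks give the mean ± SD. Igf2 and H19 fall to about 100 CPM or less, Igf1, Igfbp3, Igfbp4 and Igfbp7 lie higher in every day 8 library, and the Igfbp5 points of the ages overlap, with day 8 reaching further in both directions.

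Igf2, the fetal ligand gene, had a lowest value of 1042 CPM, a median of 1123 CPM and a highest value of 1299 CPM over the day 0 libraries. At day 8 its 5 libraries held 97.0, 94.3, 79.1, 102 and 83.8 CPM. The ages were thus separated by a wide gap, and the day 0 maximum was in library 2. The mean went from 1136 ± 96.0 CPM (SD, n = 6) to 91.2 ± 9.41 CPM (SD, n = 5), a 12.5-fold fall with a log2 fold change of -3.64 (SE 0.081, edgeR adjusted p = 2.68e-14). By TPM, which allows for transcript length, Igf2 ranked between 155 and 207 among all listed genes in the day 0 libraries and between 2857 and 3798 in the day 8 libraries.

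H19, a spliced RNA that encodes no known protein, reached 1334 CPM in its lowest, 1563 CPM at the median and 1790 CPM in its highest day 0 library, against 97.0, 75.4, 83.1, 91.1 and 82.8 CPM at day 8. No day 8 library came near any day 0 library, and within day 0 libraries 1 to 3 (1626, 1790 and 1610 CPM) were above libraries 4 to 6 (1517, 1362 and 1334 CPM), a split not seen by TPM. Its log2 fold change was -4.16 (SE 0.094, edgeR adjusted p = 8.28e-14), or -4.02 without day 0 libraries 1 to 3, the libraries with more liver transcripts. At day 0, H19 was among the most abundant transcripts of the kidney, ranked 49 to 55 by TPM, and at day 8 it ranked 1303 to 1970. Igf2 and H19 together took 0.246% to 0.307% of all counts in the day 0 libraries and 0.0158% to 0.0191% in the day 8 libraries.

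Both genes lie on the minus strand of chromosome 7 in GRCm38, H19 at chr7:142575529-142578143 and Igf2 at chr7:142650766-142666816, with 72622 bases between them. H19 holds the microRNA gene Mir675 inside an exon (84 of its 2460 exon bases), and Igf2 holds Mir483 in an intron. A gene annotated as protein-coding, Gm49394, shares 62.8% of the exon bases of Igf2 on the same strand, and only 20 counts at day 0 and 3 at day 8 were assigned to it. The antisense gene Igf2os shares 1.71% of them. Strand-specific counting is not stated in the sources used here, so reads in that overlap are uncertain. Igf2os itself fell from 6.63 ± 0.718 to 0.811 ± 0.318 CPM (log2 fold change -3.01, edgeR adjusted p = 5.81e-09).

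The mature microRNAs of these host genes and those of the series title are shown because their seeds can be set beside the transcripts of the axis. The mature forms were not measured in these libraries. Sequences are from RefSeq (GRCm38.p6), written 5′ to 3′ with the seed, bases 2 to 8, in capitals. None of the seeds is shared between them. The first pair comes from H19, the next pair from Igf2, and the last pair from chromosome 12.
miR-675-5p: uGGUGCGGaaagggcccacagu
miR-675-3p: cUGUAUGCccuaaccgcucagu
miR-483-5p: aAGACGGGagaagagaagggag
miR-483-3p: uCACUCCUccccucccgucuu
miR-409-3p: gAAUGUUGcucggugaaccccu
miR-431-5p: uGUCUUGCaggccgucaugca

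The longest annotated 3′ UTR of the 9 protein-coding members was searched for the reverse complement of each seed (7 bases). The reverse complement of the miR-675-3p seed occurred 2 times in the 7267 bases of Igf1r. Any match, whether single or repeated, was found in 37.4% of 3′ UTRs of like length, so a match in so long a UTR is common. The share with 2 matches was not computed. The reverse complement of the miR-431-5p seed occurred once in Igf1 (25.6% of 3′ UTRs of like length hold it) and once in Igf1r (24.5%). That of miR-483-3p occurred once each in Igf1, Igf2, Igfbp3 and Igfbp5, where 39.7%, 22.1%, 11.3% and 27.7% of 3′ UTRs of like length hold it. No match to the seeds of miR-675-5p, miR-483-5p or miR-409-3p was found in these windows. A match is a run of letters and does not show binding. The matches in Igf1r and Igf1 to the H19 and title microRNAs are printed with the matched letters in capitals, each named by the position of its first matched base in the UTR.
Igf1r 505, miR-675-3p: gctcctcatcaccccGCATACAc
Igf1r 1264, miR-675-3p: gaccgtgaaacatttGCATACAc
Igf1r 3375, miR-431-5p: agtataaaaaaggggGCAAGACg
Igf1 2855, miR-431-5p: aaatgaatgaacactGCAAGACa

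Igf1, the ligand gene of postnatal growth, rose from a low level. Its day 0 libraries spanned 82.5 to 104 CPM with a median of 90.2 CPM, and its day 8 libraries held 149, 142.5, 139, 155 and 142 CPM. Every day 8 library was above every day 0 library, and at day 0 libraries 1 to 3 (96.0, 104 and 93.7 CPM) were above libraries 4 to 6 (86.7, 82.5 and 86.5 CPM), again not by TPM. The rise was 1.59-fold (log2 fold change 0.67, SE 0.055, edgeR adjusted p = 4.58e-08), and 0.78 on the log2 scale without day 0 libraries 1 to 3. Mean values were 91.5 ± 7.78 CPM (SD, n = 6) and 145.5 ± 6.62 CPM (SD, n = 5).

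The balance of the ligand transcripts changed within each library. The TPM ratio of Igf1 to Igf2, which does not depend on scaling between libraries, was 0.0380 to 0.0517 in the day 0 libraries and 0.721 to 0.889 in the day 8 libraries. Its geometric mean moved from 0.0429 to 0.779, an 18.1-fold shift (exact permutation test over libraries, two-sided, p = 0.00433, the smallest value that 6 against 5 libraries allow; adjusted over 9 ratios 0.00557). Igf1 made up 4.14% ± 0.452 (SD, n = 6) of the summed ligand TPM at day 0 and 43.8% ± 2.36 (SD, n = 5) at day 8. The sum of both ligands fell from 436 ± 47.4 to 72.3 ± 7.29 TPM. By TPM, Igf2 was still the more abundant ligand transcript in all 5 day 8 libraries. By CPM, which does not allow for transcript length, Igf1 was above Igf2 in all 5 (139 to 155 against 79.1 to 102 CPM). H19 fell further than Igf2: their TPM ratio was 2.55 to 3.29 at day 0 and 1.54 to 2.13 at day 8, without overlap (log2 difference -0.65, exact permutation p = 0.00433, adjusted 0.00557).

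**Figure D2:**
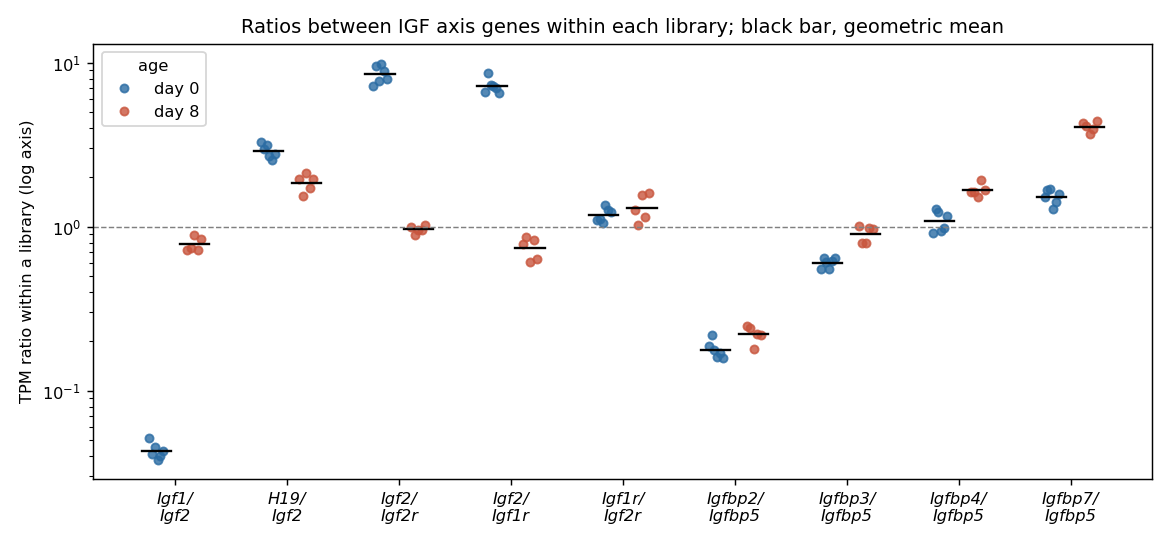
TPM ratios between genes of the axis within each library (log axis; blue, day 0, n = 6; red, day 8, n = 5; black bars, geometric means; dashed line, a ratio of 1). The Igf1/Igf2 points move from about 0.04 to between 0.721 and 0.889, Igf2 loses its excess over both receptor genes, and the Igf1r/Igf2r points of the ages overlap.

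The promoters of Igf2 were read from RefSeq because its transcript level moved furthest among the coding members. Windows run from 250 bases before to 50 bases after each annotated start, and Igf2 has 4 of them. The windows were searched on both strands for the GC box letters GGGCGG, the TATA box letters TATAAA and the CAAT box letters CCAAT, which occur in 35.7%, 13.6% and 37.4% of 32851 promoter windows of the same length. The GC boxes of Igf2 lay in 2 of its windows, which are shown on the gene's strand, 5′ to 3′, with GC and CAAT boxes in capitals. Window 3 (chr7:142658755-142659054) has 1 GC box and 24 CpG dinucleotides, and window 4 (chr7:142657447-142657746) has 2 GC boxes, 1 CAAT box and 7 CpG dinucleotides. These data do not show which start site was used at either age.
Igf2 window 3: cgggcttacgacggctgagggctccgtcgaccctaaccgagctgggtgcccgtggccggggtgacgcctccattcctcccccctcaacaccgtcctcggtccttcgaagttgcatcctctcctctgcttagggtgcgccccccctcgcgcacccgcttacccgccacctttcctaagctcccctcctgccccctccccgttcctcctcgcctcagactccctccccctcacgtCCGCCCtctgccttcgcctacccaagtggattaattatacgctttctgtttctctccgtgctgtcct
Igf2 window 4: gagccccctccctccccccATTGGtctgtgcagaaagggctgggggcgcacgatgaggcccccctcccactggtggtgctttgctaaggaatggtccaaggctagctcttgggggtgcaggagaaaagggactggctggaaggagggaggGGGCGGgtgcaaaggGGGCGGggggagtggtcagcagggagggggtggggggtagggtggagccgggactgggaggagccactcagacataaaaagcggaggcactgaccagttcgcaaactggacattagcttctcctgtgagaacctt

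The receptor genes changed little beside their ligands. Igf1r, the signalling receptor gene, lay between 481 and 525 CPM at day 0 with a median of 499 CPM, and at 402, 383, 445, 437 and 427 CPM at day 8. The ages did not overlap on this scale, and the log2 fold change was -0.26 (SE 0.045, edgeR adjusted p = 0.000147). On the TPM scale they did overlap, with 52.0 to 64.7 TPM at day 0 and 42.1 to 63.4 TPM at day 8, and limma on log2(TPM + 1) gave -0.08 with an adjusted p of 0.56. That setting changes scale, test and filter together. Within day 0, Igf1r had 52.2, 52.1 and 52.0 TPM in libraries 1 to 3 and 64.7, 64.1 and 64.2 TPM in libraries 4 to 6. The gene lies on the plus strand at chr7:67952827-68233668.

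Igf2r, the gene of the clearance receptor (chr17:12682406-12769664, minus strand), had 335 to 390 CPM at day 0 with a median of 368 CPM, and 291, 323, 252, 334 and 243 CPM at day 8. The highest day 8 library, at 334 CPM, came within 1 CPM of the lowest day 0 library. The log2 fold change of -0.35 (SE 0.080, edgeR adjusted p = 0.0020) was not called without day 0 libraries 1 to 3, which held 390, 380 and 380 CPM against 335, 356 and 356 CPM in libraries 4 to 6 (-0.27, adjusted p = 0.052). By TPM these libraries overlapped, with 46.8 to 49.1 TPM in libraries 1 to 3 and 47.4 to 52.2 TPM in libraries 4 to 6. The part of liver transcripts in this value was not tested. Airn, the noncoding RNA that in the mouse starts within Igf2r on the opposite strand and silences its paternal allele, shares no exon bases with it. Airn had 17, 12.8 and 16.4 CPM in day 0 libraries 1 to 3, 27.6, 29.6 and 20.8 CPM in libraries 4 to 6, and 10.9 to 17.3 CPM at day 8 (log2 fold change -0.62, edgeR adjusted p = 0.036). Its ages overlapped, with only day 0 libraries 4 to 6 above the day 8 range.

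Set against the receptors, the ligand transcript lost its excess. The TPM ratio of Igf2 to Igf1r went from a geometric mean of 7.18 to 0.739 and that of Igf2 to Igf2r from 8.49 to 0.963, each without overlap between the ages (exact permutation p = 0.00433, adjusted 0.00557). The ratio of Igf1r to Igf2r was 1.18 at day 0 and 1.3 at day 8, with overlapping ranges of 1.06 to 1.37 and 1.03 to 1.61. Its log2 difference of 0.14 did not pass (exact permutation p = 0.30).

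Besides Igf1, the binding protein genes taken as a sum gained RNA, though not each of them did. The summed level of the 5 members with Igfbp1 and Igfbp6 rose from 1079 ± 74.5 TPM (SD, n = 6; range 978 to 1192) to 2115 ± 152 TPM (SD, n = 5; range 1937 to 2303), and most of the gain was Igfbp7. Its share of that sum went from 34.4% ± 1.36 to 51.6% ± 1.77, while that of Igfbp5 went from 22.7% ± 1.82 to 12.7% ± 0.751 with a mean of 1240 CPM at both ages. Igfbp4 held 24.4% and then 21.1%, Igfbp3 13.6% and then 11.5%, and Igfbp2 4.02% and then 2.80%. In a sum dominated by a gene that rises, the share of another can fall while its own level rises, as for Igfbp2, Igfbp3 and Igfbp4.

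**Figure D3:**
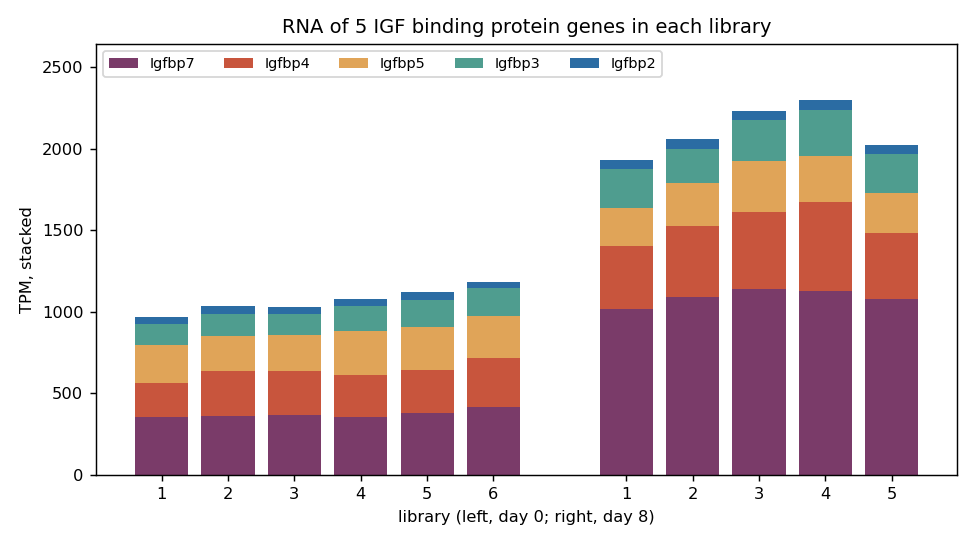
Stacked TPM of the 5 binding protein genes of the axis (vertical axis, from 0) in each day 0 library (left, 1 to 6) and day 8 library (right, 1 to 5); each colour is 1 gene. The Igfbp7 block at the bottom grows from 351 to 414 TPM at day 0 to 1018 to 1140 TPM at day 8, while the Igfbp5 block keeps a similar height.

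Igfbp7, whose product binds IGFs weakly and is found in vessel walls and matrix, gave the largest rise of the 10 genes. Its day 0 libraries held 211 CPM at the lowest, 252 CPM at the median and 274 CPM at the highest, and its day 8 libraries 580, 722, 613, 653 and 616 CPM. The lowest day 8 library was more than 2 times the highest day 0 library. The log2 fold change was 1.37 (SE 0.067, edgeR adjusted p = 1.54e-10), and by TPM Igfbp7 moved from rank 184 to 221 at day 0 to rank 50 to 56 at day 8. Markers of several cell types rose as well, where 27.5% of all tested genes were called higher. All 8 endothelial markers were called higher, and their summed level was 327 to 418 TPM at day 0 and 542 to 649 TPM at day 8. Stromal markers summed to 935 to 1159 TPM and then 1418 to 1663 TPM, with 7 of 10 called higher and 3 lower. Kidney epithelial markers summed to 1341 to 1657 TPM and then 3286 to 4076 TPM, with 6 of 8 called higher and 1 lower. The part of these cell types in the rise of Igfbp7 was not tested. Igfbp7 shares 7.03% of its exon bases with the oppositely oriented Polr2b, which went the other way, from 87.9 ± 2.96 to 73.9 ± 3.62 CPM (log2 fold change -0.25, edgeR adjusted p = 8.08e-05).

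The promoter of Igfbp7 (RefSeq, GRCm38.p6, chr5:77407996-77408295, minus strand) is shown because it holds more GC boxes than any other window searched among 9 members. It has 4, in capitals, and no match to the TATA or CAAT box letters. Its GC content is 73.3% against a median of 52.7% over all windows, and it has 33 CpG dinucleotides against a median of 7.
Igfbp7: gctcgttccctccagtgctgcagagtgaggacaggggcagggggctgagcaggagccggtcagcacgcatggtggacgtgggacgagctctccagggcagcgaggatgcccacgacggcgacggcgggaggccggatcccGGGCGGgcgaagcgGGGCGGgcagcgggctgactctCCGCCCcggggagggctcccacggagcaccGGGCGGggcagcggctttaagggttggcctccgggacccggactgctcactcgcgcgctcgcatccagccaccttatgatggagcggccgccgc

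Igfbp3 encodes the main IGF carrier of adult blood, which forms a complex with IGF and the acid-labile subunit. It spanned 244 to 272 CPM at day 0 with a median of 256 CPM, and held 371, 377, 365, 432 and 371 CPM at day 8. The ages were fully separate, and day 8 library 4 stood above the other 4, which lay within 12 CPM of each other. The rise was 1.49-fold (log2 fold change 0.57, SE 0.049, edgeR adjusted p = 7.40e-08).

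Igfbp4, whose product inhibits IGF action until a protease cuts it, lay between 417 and 508 CPM at day 0, with a median of 454 CPM, and at 569, 758, 688, 805 and 611 CPM at day 8. All day 8 libraries were above day 0, and they varied more among themselves than the day 0 libraries (SD 98.6 against 40.9 CPM). The log2 fold change was 0.59 (SE 0.089, edgeR adjusted p = 6.87e-05), a 1.5-fold rise. Of the promoter windows searched, from 9 members, its window alone held the exact letters TATAAA, 28 bases before the start. Variants of these letters were not searched.

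Igfbp2, whose product is abundant in the fetus, had the lowest mean TPM of the 5 binding protein genes of the axis at both ages. Its day 0 libraries ran from 32.0 to 44.2 CPM with a median of 36.4 CPM, and its day 8 libraries held 43.0, 54.5, 39.6, 47.8 and 40.3 CPM. The ages overlapped: day 0 libraries 1 and 2, at 41.1 and 44.2 CPM, lay within the day 8 range. The log2 fold change of 0.27 (SE 0.096, edgeR adjusted p = 0.026) lost its call without day 8 library 2 (0.19, adjusted p = 0.069) or day 8 library 4 (0.25, adjusted p = 0.061). It was 0.42 without day 0 libraries 1 to 3 (adjusted p = 0.0038). By TPM the ages did not overlap, with 38.6 to 46.9 TPM at day 0 and 53.8 to 63.4 TPM at day 8.

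Igfbp5, whose product binds to matrix, stayed at a high level with 1240 ± 52.4 CPM (SD, n = 6) at day 0 and 1240 ± 137 CPM (SD, n = 5) at day 8. The day 8 libraries held 1086, 1401, 1332, 1271 and 1112 CPM, which extends beyond the day 0 range of 1169 to 1294 CPM on both sides. Its log2 fold change was 0.00 (SE 0.066, edgeR adjusted p = 0.99), it was not called under any of 24 other settings, and their estimates lay between -0.06 and 0.13. Igfbp2 and Igfbp5 lie on chromosome 1, 5457 bases apart on opposite strands, at chr1:72824503-72852474 and chr1:72857932-72874884. Their TPM ratio within a library rose from 0.177 to 0.221 (log2 difference 0.32, exact permutation p = 0.022, adjusted over 9 ratios 0.024), with ranges of 0.157 to 0.218 and 0.180 to 0.247 that overlap. Against Igfbp5, the ratios of Igfbp3 (0.601 to 0.905), Igfbp4 (1.08 to 1.67) and Igfbp7 (1.52 to 4.08) rose without overlap (exact permutation p = 0.00433 and adjusted p = 0.00557 each).

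The order of the members by mean TPM changed between the ages. At day 0, H19 stood first with 1206 ± 80.0 TPM (SD, n = 6), followed by Igf2 with 418 ± 47.2 TPM and Igfbp7 with 371 ± 23.3 TPM, whose ranges overlapped although Igf2 was above Igfbp7 in 5 of 6 libraries. Igfbp4 with 263 ± 29.5 TPM and Igfbp5 with 245 ± 25.7 TPM followed with overlapping ranges, then Igfbp3 with 147 ± 16.9 TPM. Igf1r with 58.2 ± 6.71 TPM, Igf2r with 49.0 ± 2.08 TPM and Igfbp2 with 43.1 ± 2.97 TPM overlapped from one to the next, and Igf1 stood last with 17.8 ± 0.389 TPM.

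At day 8, Igfbp7 stood first with 1090 ± 47.7 TPM (SD, n = 5) and Igfbp4 next with 449 ± 63.5 TPM, each separate from the gene below it. Igfbp5 with 268 ± 30.5 TPM and Igfbp3 with 243 ± 25.3 TPM overlapped. H19 had dropped to the fifth place with 75.6 ± 11.6 TPM. From H19 through Igfbp2 (59.0 ± 4.29 TPM), Igf1r (55.3 ± 8.06 TPM), Igf2r (42.2 ± 5.16 TPM) and Igf2 (40.7 ± 4.86 TPM), each gene overlapped the one below it. Igf1 was still last, with 31.6 ± 3.20 TPM, below the range of Igf2.

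**Figure D4:**
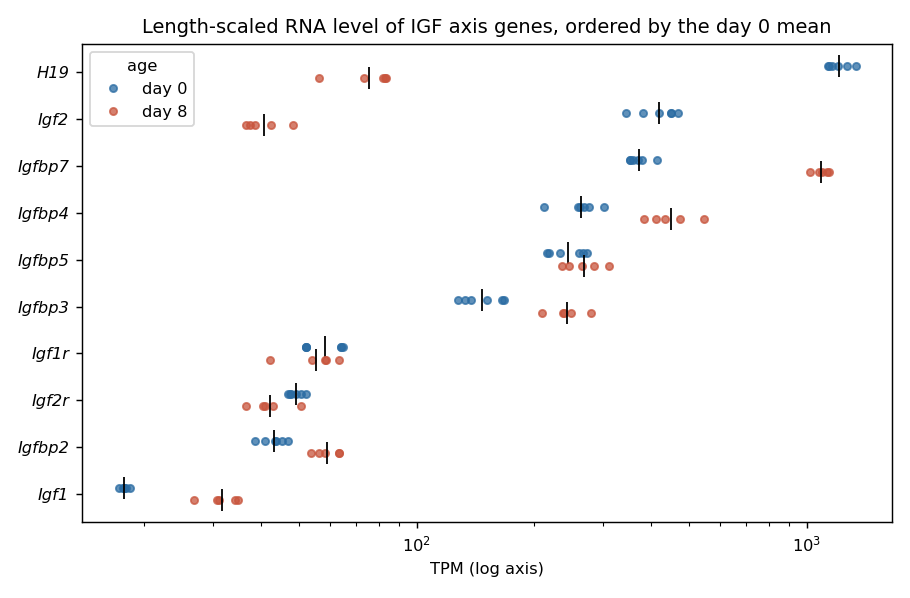
TPM of the 10 genes in each library (log axis; blue, day 0, n = 6; red, day 8, n = 5; black ticks, means), ordered by the day 0 mean. H19 and Igf2 lead at day 0 and lie to the left of 84 TPM at day 8, and Igfbp7 lies at 1018 to 1140 TPM in the 5 day 8 libraries.

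Genes with the most similar profiles were found by the root mean square distance between log2 CPM profiles, each centred on its mean over the 11 libraries, among 11058 genes with a mean of at least 10 CPM. Since the ages differ widely, this distance mainly picks genes with the same size of change. Nearest to Igf2 were Spock2 (0.21 on the log2 scale), Ndnf (0.26), Sox9 (0.27), Ret (0.28) and Etv4 (0.29), and H19 was in place 6. Ret encodes the receptor of the ureteric bud for GDNF, and Sox9 and Etv4 encode transcription factors of the developing kidney. Nearest to H19 were Ndnf (0.12), Uncx (0.16), Ret (0.25), Slit1 (0.28) and Igf2 itself (0.29). Nearest to Igf1 were Shmt1 (0.07), Colec12 (0.07), Baiap2 (0.07), Bgn (0.08) and Mrc2 (0.08), where Bgn encodes the matrix proteoglycan biglycan. Nearest to Igfbp3 were Cyb5d2 (0.03), Plekhb2 (0.05), Gng12 (0.05), Enox2 (0.05) and Mcur1 (0.06).

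Beyond the members, 75 genes of the pathway and of the chromosomal neighbourhoods were examined in 9 lists. Of these, 69 were tested, and 16 were called higher, 30 lower and 23 not called, with a median log2 fold change of -0.07 against -0.01 over all tested genes. Over all tested genes, 27.5% were called higher and 30.1% lower. The counts given below for each list are to be read beside these shares. Limma on log2(TPM + 1), which differs in scale, test and filter, called 17 higher and 15 lower. Among the other carriers, Igfals, the gene of the acid-labile subunit, rose from 8.20 ± 1.55 to 15.7 ± 0.712 CPM (log2 fold change 0.93, edgeR adjusted p = 2.70e-06). Igfbp6 fell from 4.12 ± 1.90 to 1.78 ± 0.502 CPM (-1.20, adjusted p = 0.0024). Igfbp1, a gene expressed strongly in liver, was not called (-0.66, adjusted p = 0.087): it had 6.12, 7.94 and 6.85 CPM in day 0 libraries 1 to 3, the libraries with more liver transcripts, and 2.80 to 2.97 CPM in libraries 4 to 6. Without libraries 1 to 3, its log2 fold change was 0.12 (adjusted p = 0.66), whereas without library 5 or 6 it was called lower (-0.78 and -0.77, adjusted p = 0.041 and 0.045). Igfbpl1 had 3 counts at day 0 and 1 at day 8 and was not tested.

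The proteases that free IGF from its binding proteins, listed with their inhibitors, went in both directions, with 2 of 5 higher, 2 lower and 1 not called. Htra1, a secreted serine protease gene, rose 3.91-fold from 6.61 ± 0.603 to 25.8 ± 1.16 CPM, and Stc2, whose product inhibits the pappalysin proteases, rose 2.83-fold from 10.1 ± 0.516 to 28.6 ± 2.62 CPM (edgeR adjusted p = 5.82e-12 and 6.08e-11). Pappa2, a pappalysin gene whose product cuts IGFBP3 and IGFBP5, went from 128 ± 13.4 CPM down to 40.8 ± 8.72 CPM, a 3.13-fold fall (edgeR adjusted p = 8.83e-07). Stc1 was called lower (log2 fold change -0.24, adjusted p = 0.013), but not with TPM (-0.08, adjusted p = 0.48), nor without day 8 libraries 3 to 5 (-0.13, adjusted p = 0.32) or day 0 libraries 1 to 3 (-0.19, adjusted p = 0.056). Pappa, the IGFBP4 protease gene, had 41.1 ± 3.82 and 46.4 ± 4.89 CPM and was not called (0.17, adjusted p = 0.062). It was called higher in 7 of 24 other settings, among them without day 0 library 5 or 6 or day 8 library 1 or 4 (0.20 to 0.22, adjusted p = 0.024 to 0.049).

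Of the related receptors, the insulin receptor gene Insr had 157 ± 8.25 CPM at day 0 and rose to 200 ± 10.4 CPM (log2 fold change 0.35, edgeR adjusted p = 7.21e-06) and the insulin receptor-related Insrr, a sensor of alkaline fluid, from 15.2 ± 1.34 to 29.0 ± 4.25 CPM (0.93, adjusted p = 2.98e-07). Lrp1 (0.01, adjusted p = 0.82) and the growth hormone receptor gene Ghr (-0.06, adjusted p = 0.33) were not called, although Ghr was called lower with library size alone (-0.12, adjusted p = 0.047). On the growth hormone route, 1 of 6 genes was higher, 2 were lower and 3 were not called. Socs2, a feedback inhibitor gene of growth hormone signalling, fell 2.34-fold from 62.0 ± 2.87 to 26.4 ± 2.29 CPM, and Stat5a, a transcription factor gene of the route, rose 1.55-fold from 7.23 ± 0.782 to 11.2 ± 1.67 CPM (edgeR adjusted p = 1.14e-10 and 0.000120).

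All 3 genes of the IGF2 mRNA binding proteins, which bind Igf2 and other transcripts in fetal tissue, fell. Igf2bp1 went from 93.7 ± 9.50 to 34.4 ± 3.13 CPM (log2 fold change -1.45), Igf2bp2 from 83.2 ± 2.20 to 20.5 ± 1.53 CPM (-2.02) and Igf2bp3 from 48.4 ± 2.69 to 17.6 ± 2.14 CPM (-1.46). The edgeR adjusted p-values were 4.19e-10, 1.02e-13 and 2.12e-10. In the list of signalling genes below the receptor, 5 of 25 tested genes were higher, 9 lower and 11 not called. Grb10, an imprinted gene whose product inhibits the insulin and IGF1 receptors, fell from 690 ± 33.6 to 303 ± 11 CPM, or 2.28-fold (edgeR adjusted p = 7.78e-12), and the adaptor gene Irs2 fell 1.64-fold (adjusted p = 2.65e-09). Akt1, a kinase gene of the pathway, had 204 ± 8.69 and 172 ± 9.29 CPM (-0.24, edgeR adjusted p = 0.000171), and was not called with TPM (-0.10, adjusted p = 0.21).

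The fall of Igf2 and H19 was not shared by all genes around them. Of 13 tested neighbours on chromosome 7, 3 were higher, 6 lower and 4 not called. Cd81, a tetraspanin gene, had 295 ± 22.0 CPM at day 0 and rose to 398 ± 24.0 CPM (log2 fold change 0.43, edgeR adjusted p = 5.37e-06). Cdkn1c, an imprinted cell cycle inhibitor gene, had 354 ± 38.4 and 374 ± 38.0 CPM and was not called (0.08, adjusted p = 0.40), but it was called higher with TPM (0.29, adjusted p = 0.0064) and without day 0 libraries 1 to 3 (0.21, adjusted p = 0.039). Tnnt3, which is also a skeletal muscle marker, fell from 0.921 ± 0.517 to 0.104 ± 0.0773 CPM (-3.06, edgeR adjusted p = 9.73e-05). The 8 muscle markers summed to 3.03 to 22.8 TPM at day 0 and 0.998 to 2.76 TPM at day 8, and their part in the Tnnt3 value was not tested.

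Among the neighbours of Igf2r on chromosome 17, Airn was lower, as given above. Slc22a2, an organic cation transporter gene of the kidney tubule, rose from 45.4 ± 8.09 CPM at day 0 to 87.1 ± 10.5 CPM at day 8 (log2 fold change 0.94, edgeR adjusted p = 4.45e-05). Plg, the plasminogen gene of the liver, had 5.39, 7.45 and 3.94 CPM in day 0 libraries 1 to 3 and at most 0.476 CPM in libraries 4 to 6, and was not called (log2 fold change -2.11, adjusted p = 0.12). Without libraries 1 to 3 its sign changed (1.14, adjusted p = 0.30).

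All 6 genes of the last list, named locus regulators, were called lower with TMM scaling. The name is a label for the list, and action on the Igf2-H19 locus was not tested for any of them. Of all tested genes, 30.1% were called lower. Zfp57 changed little (log2 fold change -0.24, edgeR adjusted p = 0.020), and its libraries overlapped, with 15.8 to 21.7 CPM at day 0 and 15.5 to 18.7 CPM at day 8. Lin28b rests on 75 counts at day 0 and 33 at day 8, and it overlapped as well (0.377 to 0.736 and 0.0859 to 0.571 CPM). Hmga2, the gene of a chromatin protein of fetal tissue, fell from 50.9 ± 2.04 to 6.56 ± 0.324 CPM (log2 fold change -2.96, edgeR adjusted p = 4.61e-15). Plagl1, an imprinted zinc finger gene, fell 3.09-fold from 243 ± 13 to 78.6 ± 6.57 CPM (adjusted p = 3.21e-12). Ctcf, whose product binds the control region between Igf2 and H19 on the maternal allele, had 115 ± 3.16 and 92.7 ± 4.23 CPM (-0.32, edgeR adjusted p = 3.92e-06), and was not called with TPM (-0.14, adjusted p = 0.11).

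**Figure D5:**
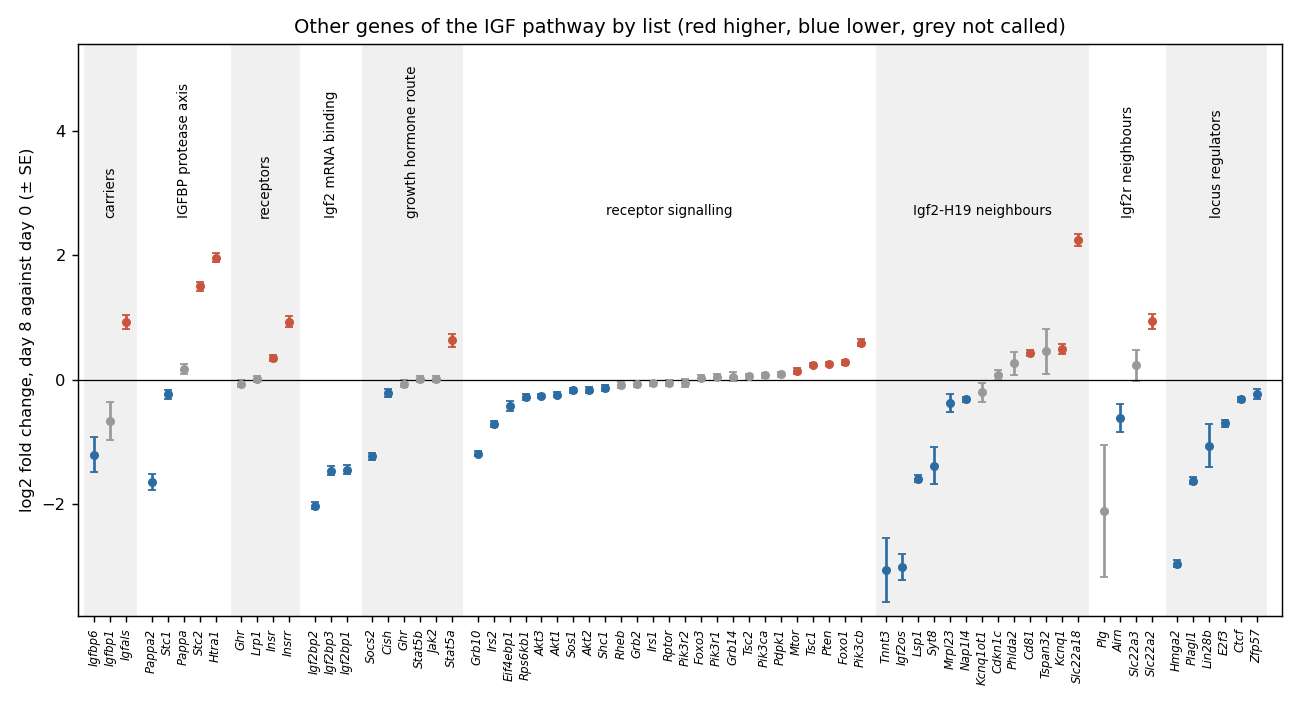
Log2 fold change (day 8 against day 0, ± SE from edgeR) of the tested pathway and neighbouring genes reported here, grouped by list; red, called higher, blue, called lower, grey, not called (Ghr belongs to a pair of lists and is drawn in both). The 3 Igf2 mRNA binding protein genes and the 6 locus regulators are all below 0, whereas the receptor signalling genes lie on both sides of 0, from Grb10 at -1.19 to Pik3cb at 0.60.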

How the data were processed

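Estimated counts and TPM of 32692 genes were deposited, which per the submitters' processing notes come from a workflow naming FastQC, fastp, DRAGEN, Picard and mm10 (GRCm38). The settings, the annotation and the use of strand are not given in the sources used here. The authors' estimated counts need not be whole (12.1% to 13.1% of values per library were not, with no tolerance) and were rounded, where whole counts had been planned for. The authors' TPM values, corrected for length and depth, add up to 995005 to 998182 per library. Of 12 samples in the labels, 11 had a column, so 6 against 5 libraries were compared. Labels give no batch, sex or litter.

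Tests used edgeR 4.0.16 in R 4.3.3 (filterByExpr, TMM, robust quasi-likelihood fit on age, Benjamini-Hochberg over 18763 genes, threshold 0.05). SE is the size of the log2 fold change divided by the square root of F. CPM are TMM-scaled. On simulated counts for day 8 against day 0 (18555 genes, 50 changed per fold size), 58% of genes changed 1.5-fold, 84% changed 2-fold and 96% each changed 4-fold and 8-fold were called, with 11 false among 178 calls. The data had a far larger part of genes called (57.6%), so these rates need not hold for them. Ratios of TPM were compared by two-sided exact permutation tests. Replicate pairs differed by 4.64 to 41.6 chi-square per degree of freedom, so no library was treated as a duplicate. Alternatives were DESeq2 1.42.0, limma 3.58.1 on log2(TPM + 1), with and without a filter at a mean TPM of 1, and on log2(TPM + 0.1), limma-voom, other scalings and filters, a stricter threshold of 0.01, the level of Xist as a covariate, and each library left out in turn. The fits without day 0 libraries 1 to 3, or without day 8 libraries 3 to 5, were chosen after seeing the data. Fold changes from TPM are on the log2(TPM + 1) scale.

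The members and lists were chosen with earlier results of these data known. Named genes are the 10 members, all tested genes of the carrier, protease, receptor and mRNA binding lists, from each other list those with the 2 largest changes and the 2 highest mean TPM, and the 5 nearest profiles of Igf2, H19, Igf1 and Igfbp3. Of the genes this rule names, 1 is not reported here. Airn, Polr2b, Pik3cb, Zfp57 and Lin28b were named after their values were seen. Of the fat markers, 4 of 5 tested were called higher at day 8, and of the liver markers 1 of 8 was called lower. Other cell types checked by marker lists were podocytes (3 of 5 tested markers higher, 1 lower), adrenal (0 of 2), cartilage (3 of 3 lower) and blood (0 of 6). Sequences are from RefSeq (GRCm38.p6) and 3′ UTRs from the GRCm38 transcripts. Figures used Python 3.11.15 and matplotlib 3.10.9.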

Additional observations from a re-analysis of the deposited data

Results flagged for a closer look

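Within 114 groups of libraries tested (the members, the named pathway genes and the genes with the nearest profiles, each at both ages), 4 held a library whose gap to its nearest neighbour was large for the group's range, where chance alone gives about 1 in 20. Igfbp3 stood at 431.8 CPM in day 8 library 4, with the next library at 376.7 CPM. Htra1 stood at 5.411 CPM in day 0 library 6, below the next at 6.623 CPM. Igf2bp2 stood at 23.14 CPM in day 8 library 1, with the next at 20.07 CPM. Grb10 stood at 753 CPM in day 0 library 2, with the next at 687.4 CPM.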

How the results depend on the processing

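No called result reversed. Among results that were not called, Igfbp5, Lrp1 and Ghr changed sign under several settings, and Igfbp1 (0.12) and Plg (1.14) without day 0 libraries 1 to 3. Igf1, Igf2, H19, Igfbp3, Igfbp4 and Igfbp7 were called in all 24 other settings, with log2 fold changes of 0.61 to 0.82, -3.70 to -3.33, -4.22 to -3.99, 0.51 to 0.72, 0.52 to 0.77 and 1.31 to 1.56. Igf1r was called in 21, Igf2r in 22 and Igfbp2 in 21 of them. Limma on log2(TPM + 1) without a filter called 2 members lower in place of 4. Of the other pathway genes, 15, 15 and 16 were called lower by limma on log2(TPM + 1), on log2(TPM + 0.1) and on log2(TPM + 1) without a filter, in place of 30. The cause was not tested. The log2 difference of Igfbp2/Igfbp5 was 0.27 with CPM in place of TPM (adjusted p = 0.058), and 0.28 to 0.39 with 1 library left out (adjusted p = 0.011 to 0.054), where it did not pass without day 8 library 1 (0.28) or 2 (0.29). With 1 library left out, 4 to 5 members were called higher and 4 lower, and 16 to 19 pathway genes higher and 25 to 29 lower. No paired analysis was possible because the labels give the ages no shared replicate numbers. Changes of 1.5-fold were often missed in simulated data, where far fewer genes were changed than the 57.6% called here. That rate need not hold for these data. Igf2os, Tnnt3, Igfbp6 and Lin28b rest on few counts.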

Other observations

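Day 0 libraries 1 to 3 and 4 to 6, which differ in liver transcripts, also differed in several members, given here as values with no test since the split was seen in the data. Which members split depended on the scale. By CPM, H19, Igf1, Igf2r, Igfbp2 and Igfbp7 were higher and Igf1r was lower in each of libraries 1 to 3 than in any of libraries 4 to 6. By TPM none of the members was higher in this way, and Igf1r, Igfbp3 and Igfbp5 were lower. Igfbp5 had 233, 215 and 218 TPM in libraries 1 to 3 and 274, 268 and 260 TPM in libraries 4 to 6, but its CPM overlapped, with 1282, 1193 and 1169 CPM against 1294, 1278 and 1221 CPM. Albumin (Alb), a liver gene, had 153, 158 and 90.3 CPM in libraries 1 to 3 and 1.51 to 3.60 CPM in libraries 4 to 6. The sample numbers in the titles follow the same split, with the lower numbers of day 0 on libraries 1 to 3 and the higher on libraries 4 to 6, and the higher numbers of day 8 on libraries 3 to 5, those with more fat transcripts. The labels do not say what these numbers stand for and give no batch, litter or sex, and the cause of the split was not tested.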
